A study of Petrolisthes cinctipes with 164 samples.

Results

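Of the 13818 probes on the porcelain crab array, 58 held a raised differential through early, middle and late recovery from heat stress. A differential is the log2 intensity of a probe in a heat stressed crab minus that in the control crab of the same pair, averaged over both arrays of the pair. The 58 probes were chosen by their measured differentials. The early mean covered the pairs of 1 and 2 h, the middle mean those of 12 and 18 h, and the late mean those of 24 and 30 h. A probe was kept where the largest of the 3 means was at least 0.4 and each of the 3 was at least 0.5 of that largest mean. The rule allowed up to 60 probes and 58 passed it, out of 237 probes whose largest mean reached 0.4.

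Petrolisthes cinctipes is a crab of the rocky shore, where low tide on a warm day can heat an animal quickly and the returning water cools it again. In animals generally, heat unfolds proteins and sets off the heat shock response, in which heat shock transcription factors switch on genes for chaperones that refold or clear damaged proteins. Many of these transcripts rise within the heat exposure or soon after it and then decline, while other transcripts of repair, protein turnover and metabolism stay altered for longer. The array carried complementary DNA clones of the crab. The probes are identified here only by their IDs, since no table used here pairs a probe with a gene, so no gene name or role is given, and it is not known here which of the 58 report the same transcript.

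Expression was measured in crabs collected in the field, 41 heat stressed and 41 control. Heat stressed crabs were warmed from 11 to 30 °C within 4 h, control crabs stayed at 11 °C for that time, and both then recovered together at 11 °C. Crabs were taken after 0.5, 1, 2, 4, 6, 12, 18, 24 and 30 h of recovery, in 5, 4, 5, 3, 4, 5, 5, 5 and 5 pairs. The labels name no tissue, so the expected cell types could not be checked against markers, and in such bulk RNA fewer cells of a type and less RNA per cell cannot be told apart. A heat stressed and a control crab of equal time and replicate number were labelled with Cy5 and Cy3 and hybridised together to 2 arrays, a and b, with the dyes exchanged, so the 82 crabs gave 82 arrays and 164 channels.

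Several pairs stood apart from the rest, and they all lay at 0.5, 4 and 6 h, the times that the choice of probes did not use. At the other times the rule kept only probes raised on average, which works against a pair standing apart there. Nothing is therefore read from the absence of such pairs at those times. In the pair of 0.5 h replicate 5 the median differential of the 58 probes was -0.74, and 8 of the 58 lay above 0. In the pair of 6 h replicate 1 the median was -0.95, and 1 of the 58 lay above 0. In both pairs arrays a and b had medians of the same sign, and title and description of the samples gave the same treatment. At 4 h the arrays of a pair disagreed. Replicate 1 had a median of -1.28 on array a and 0.98 on array b, and replicate 3 had 0.85 on array a and -1.13 on array b. In these pairs 54 and 53 of the 58 probes had opposite signs on the 2 arrays, against 48.5% and 60.4% of all probes, so that averaging both arrays brought the 58 probes close to 0. It is not known here whether labels were exchanged on the arrays of these 4 pairs, which was not tested. An exchange would turn the sign of the differentials concerned, and the values and calls at 0.5, 4 and 6 h hold for the labels as given. In the other pairs of these times the median of the 58 lay between 0.36 and 1.39. For the pairs of 4 h replicate 2 and 6 h replicates 3 and 4, title and description of every sample named opposite treatments, and the title was used. Under the titles the median differentials of these 3 pairs were 0.47, 1.39 and 0.95. Labels also disagreed for array b of replicate 5 at 12, 18, 24 and 30 h, where the medians under the titles were 1.12, 0.99, 1.07 and 0.94, near those of array a in the same pairs (1.11, 1.23, 1.24 and 1.02). The choice of probes used these arrays with the treatment of the titles, so nothing is read from this likeness about the labels.

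**Figure D1:**
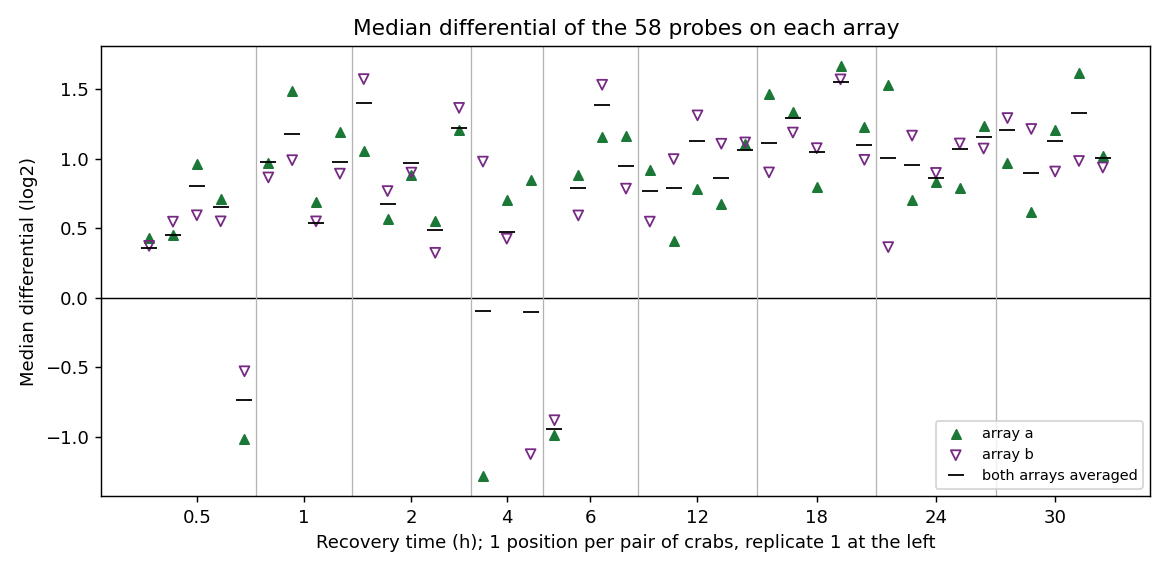
Median differential of the 58 probes (y axis, log2) in each of the 41 pairs of crabs (x axis, by recovery time), on array a (filled triangles), on array b (open triangles) and with both arrays averaged (bars). The medians of 0.5 h replicate 5 and 6 h replicate 1 lie below 0 on both arrays, and those of 4 h replicates 1 and 3 lie on opposite sides of 0. The 58 arrays of 1, 2, 12, 18, 24 and 30 h all lie above 0, between 0.32 and 1.67. The choice of probes used these arrays, so nothing is read from their sign.

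At the times that chose them, the 58 probes had a median early mean of 0.90, a median middle mean of 1.02 and a median late mean of 0.93. These values describe the choice and were not tested. The smallest of the 3 means was at least 2 log2 units in 9 probes and at least 1 in 23, while it stayed under 0.5 in 20. Of the 58 probes, 37 had a differential above 0 in all 29 pairs of these times. Over the whole array 46 probes did so, which is 0.333%. By time point, 48 of the 58 were above 0 in every pair at 1 h, where 5.86% of all probes were, and 52 at 2 h, where 3.8% were. At 12 h the number was 47, against 4.81% of all probes, and at 18 h it was 49, against 4.48%. At 24 h 50 of the 58 were above 0 in every pair, where 3.15% of all probes were, and at 30 h 49 were, where 4.78% were. As the rule used these pairs, nothing is read from the shares.

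**Figure D2:**
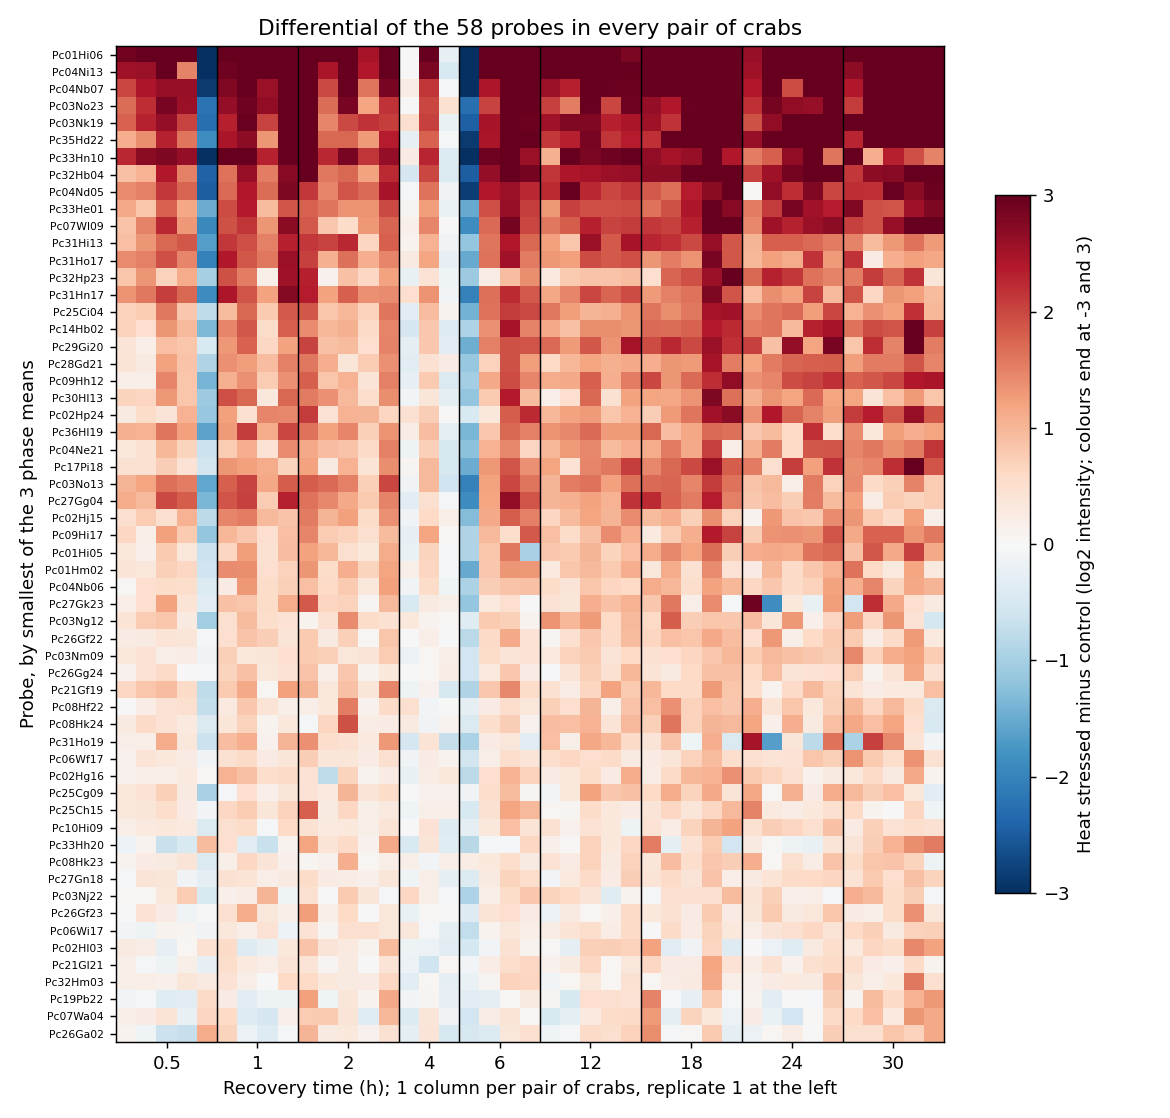
Differential (colour, log2 intensity, heat stressed minus control, colours end at -3 and 3) of the 58 probes (y axis, by the smallest of their 3 means, largest at the top) in each of the 41 pairs of crabs (x axis, by recovery time). Red runs through the columns of 1, 2, 12, 18, 24 and 30 h, the times that chose the probes. The columns of 0.5 h replicate 5 and 6 h replicate 1 are blue for most probes, and those of 4 h replicates 1 and 3 are pale.

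Pc01Hi06 had the largest smallest mean of the set, with an early mean of 3.52, a middle mean of 3.89 and a late mean of 4.11, which are folds of 11.4, 14.8 and 17.3. Over the 29 pairs that chose it, its level was 10.3, 12.2 and 13.7 (lowest, median and highest log2 intensity) in heat stressed crabs, against 7.17, 8.06 and 10.0 in control crabs. The dimmest heat stressed crab was thus brighter than the brightest control crab. Its differential averaged 3.87 ± 0.61 at 1 h (SD, n = 4) and 3.23 ± 0.50 at 2 h (SD, n = 5). It averaged 4.37 ± 0.65 at 18 h and 4.38 ± 0.92 at 30 h (SD, n = 5 each).

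At 0.5 h the level of Pc01Hi06 was 10.44, 11.31, 11.04, 11.49 and 7.21 in the heat stressed crabs of replicates 1 to 5, against 7.54, 7.79, 7.79, 8.04 and 11.08 in the control crabs. The heat stressed crabs of replicates 1 to 4 were all above their control crabs, while in replicate 5 the control crab lay within the range of those heat stressed crabs and the heat stressed crab lay below every control crab. At 6 h the level was 7.79, 11.48, 13.20 and 12.41 in heat stressed crabs, against 11.89, 7.76, 8.99 and 8.80 in control crabs. Again 1 pair, replicate 1, had the opposite direction, and the others differed by at least 3.60. At 4 h the level was 9.95, 10.43 and 9.56 in heat stressed crabs, against 9.93, 7.29 and 9.81 in control crabs. On the single arrays of 4 h replicate 1 the differential of Pc01Hi06 was -4.15 on array a and 4.20 on array b, and in replicate 3 it was 4.32 on array a and -4.81 on array b. Only replicate 2 held a differential with 1 direction at 4 h, with 3.85 on array a and 2.43 on array b.

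**Figure D3:**
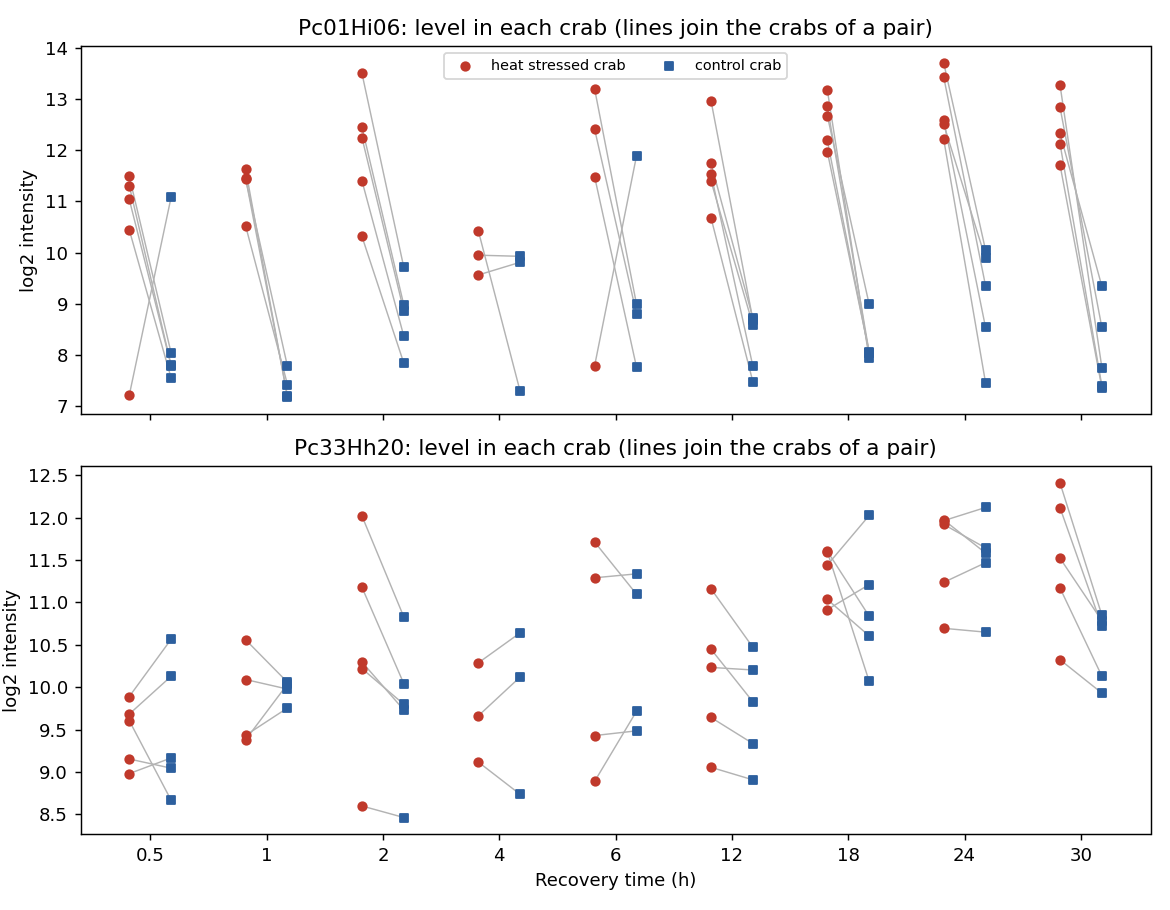
Level (y axis, log2 intensity) of Pc01Hi06 (upper panel) and Pc33Hh20 (lower panel) in every heat stressed crab (circles, left) and control crab (squares, right) at each recovery time (x axis, h), with lines joining the crabs of a pair. Pc01Hi06 separates the groups at the 6 times used to choose it and is inverted in 0.5 h replicate 5 and 6 h replicate 1, while the levels of Pc33Hh20 overlap between the groups at each time.

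Pc04Ni13, ranked after it, had an early mean of 3.29, a middle mean of 3.91 and a late mean of 4.01. Its level at 0.5 h was 10.45, 10.67, 11.28, 9.26 and 8.26 in heat stressed crabs, against 7.90, 8.09, 8.07, 7.78 and 11.63 in control crabs. Replicate 5 was the only pair of 0.5 h with the control crab above. Together with Pc33Hn10 and Pc32Hb04, the probes Pc01Hi06 and Pc04Ni13 were the 4 of the 58 whose heat stressed and control levels did not overlap over the 29 pairs that chose them. Over the whole array 4 probes, 0.0289%, had this separation with the heat stressed crabs higher, and as the rule used these pairs nothing is read from it.

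Pc04Nb07, Pc03No23 and Pc03Nk19 all carry the letter N after the plate number in their IDs, as does Pc04Ni13. Pc04Nb07 had differentials of 2.00, 2.43, 2.62, 2.62 and -2.86 in the pairs of 0.5 h and of -2.99, 2.43, 4.11 and 3.64 in those of 6 h. Pc03No23 had 1.67, 2.21, 2.84, 2.57 and -2.22 at 0.5 h and -2.26, 2.02, 3.45 and 3.28 at 6 h. Pc03Nk19 had 1.77, 2.31, 2.64, 2.02 and -2.27 at 0.5 h and -2.46, 2.47, 3.00 and 2.95 at 6 h. In these 3 probes every pair of 0.5 and 6 h was raised by over 1.5 log2 units except 0.5 h replicate 5 and 6 h replicate 1, in which each was lowered by over 2. Pc35Hd22, sixth in rank, had the largest gain of the 58 between early and late recovery, with an early mean of 2.33, a middle mean of 2.90 and a late mean of 3.43.

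The rise was mostly larger late than early. The late mean was above the early mean in 44 of the 58 probes and below it in 14, and the largest of the 3 means was the late one in 33 probes, the middle one in 13 and the early one in 12. In 15 probes the late mean exceeded the early one by over 0.5, among them Pc35Hd22 with 1.10 and Pc03Nk19 with 0.90. In 4 probes it was lower by over 0.5, namely Pc33Hn10 (-0.84), Pc03No13 (-0.70), Pc27Gg04 (-0.63) and Pc31Hn17 (-0.57). Pc33Hn10 had a differential of 3.36 ± 0.76 at 1 h (SD, n = 4), and of 2.18 ± 0.77 at 24 h and 2.03 ± 0.86 at 30 h (SD, n = 5 each). Its late pairs ranged from 1.08 to 3.31 and overlapped its early pairs, which ranged from 2.15 to 3.93. Each time had its own crabs, so no pair was followed from early to late. These differences between early and late come from the values that chose the probes and were not tested.

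**Figure D4:**
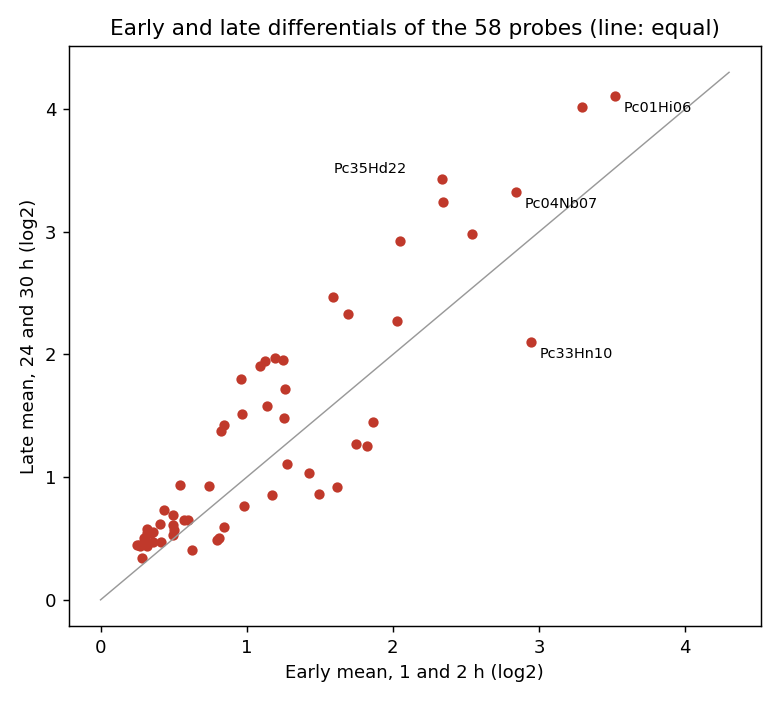
Late mean of 24 and 30 h (y axis, log2) against early mean of 1 and 2 h (x axis, log2) of the differentials of the 58 probes, with a line where both are equal. Of the 58 points 44 lie above the line, Pc35Hd22 farthest with 1.10, and Pc33Hn10 lies farthest below it with -0.84.

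Values just inside and just outside the limits of the rule lay close together. Pc26Ga02, the last in rank, had an early mean of 0.25, a middle mean of 0.34 and a late mean of 0.44. Pc08Hk24 came closest above the required share of the largest mean, with an early mean of 0.49 that was 0.53 of its middle mean of 0.93, whereas Pc08Hl24, which lies in an adjoining well, was closest below with 0.35 and 0.72, a share of 0.48. Pc21Gb09 came closest below the required size, with a largest mean of 0.39. Pc28Ge22, named after its values were seen, was not a member although its early mean of 3.87 was above that of each of the 58. Its middle mean of 3.07 was followed by a late mean of 1.79, a share of 0.46.

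The test of heat stress against control used the 12 pairs of 0.5, 4 and 6 h, which had no part in choosing the probes. Averaged over these 3 times, the differential had a median of 0.32 over the 58 probes, ranged from -0.09 to 1.56, and was above 0 in 52 of the 58, or 89.7%, while the median over all probes was 0.00 and 51.5% were above 0. Among the 179 probes that reached 0.4 in a mean but fell under the required share in another, the median was 0.10 and 73.2% were above 0. The size kept the order of the choice. The median was 1.19 in the 9 probes whose smallest mean was at least 2, and 0.53 in the 14 between 1 and 2. It was 0.25 in the 15 between 0.5 and 1, and 0.10 in the 20 below 0.5.

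With limma on the pair differentials and Benjamini-Hochberg adjustment over 13818 probes, 0 probes were called for the mean of 0.5, 4 and 6 h at an adjusted p under 0.05, that is 0%, and so 0 of the 58. An unadjusted p under 0.05 was found for 425 probes, 5 of them among the 58. Likewise 0% were called at 0.5 h, 0% at 4 h and 0% at 6 h, where the unadjusted p was under 0.05 in 376, 286 and 526 probes and in 0, 0 and 6 of the 58. Pc01Hi06 had a differential of 1.56 ± 0.84 (standard error) and an adjusted p of 0.979 in limma, with 9 of 12 pairs above 0. Pc04Ni13 had 1.39 ± 0.76 and Pc04Nb07 had 1.31 ± 0.65, each with the same adjusted p of 0.979 in limma. The differential at 1 of these times was also set against that at another, and limma called 0 probes in each of the 3 comparisons. Here 250 probes (0.5 against 4 h), 245 probes (0.5 against 6 h) and 310 probes (4 against 6 h) had an unadjusted p below 0.05.

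The calls hinged on 2 pairs. Without 0.5 h replicate 5 and 6 h replicate 1, limma called 62 probes as higher in heat stressed crabs for the mean of the 3 times, 0.449% of all probes, and 27 of the 58 were among them. At 6 h it called 34 as higher, 0.246% of all probes, with 26 of the 58 among them. At 0.5 h it called 15 as higher, 0.109% of all probes, with 9 of the 58 among them. At 4 h it called 0 probes. Both pairs were left out because of their measured values, which under the titles ran against the rest. These calls are thus no independent support for the direction. The calls at 6 h rest in part on replicates 3 and 4, whose descriptions named the treatment opposite to the titles. The fit without the 2 pairs was not repeated with the treatment of the descriptions. Over all 12 pairs, the descriptions were used in place of the titles for 4 h replicate 2 and 6 h replicates 3 and 4. The median differential of the 58 then turned to -0.17 and 5 of the 58 lay above 0.

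Without these 2 pairs, Pc01Hi06 had a differential of 2.70 ± 0.28 (standard error, adjusted p = 0.00439 in limma), Pc04Nb07 of 2.20 ± 0.22 and Pc31Hn17 of 1.39 ± 0.13, both with the same adjusted p. The 27 probes called ranged from 0.37 to 2.70 log2 units, and 17 of them were among the first 20 in rank. The 9 called at 0.5 h were Pc01Hi06, Pc04Nb07, Pc03No23, Pc03Nk19, Pc33Hn10, Pc04Nd05, Pc31Hi13, Pc31Ho17 and Pc31Hn17, and all 9 were called at 6 h and for the mean too. The median of the 58 probes became 0.59, with 55 of 58 above 0, or 94.8%, against 49.3% of all probes. In both pairs left out, 49 of the 58 had a differential below 0.

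**Figure D5:**
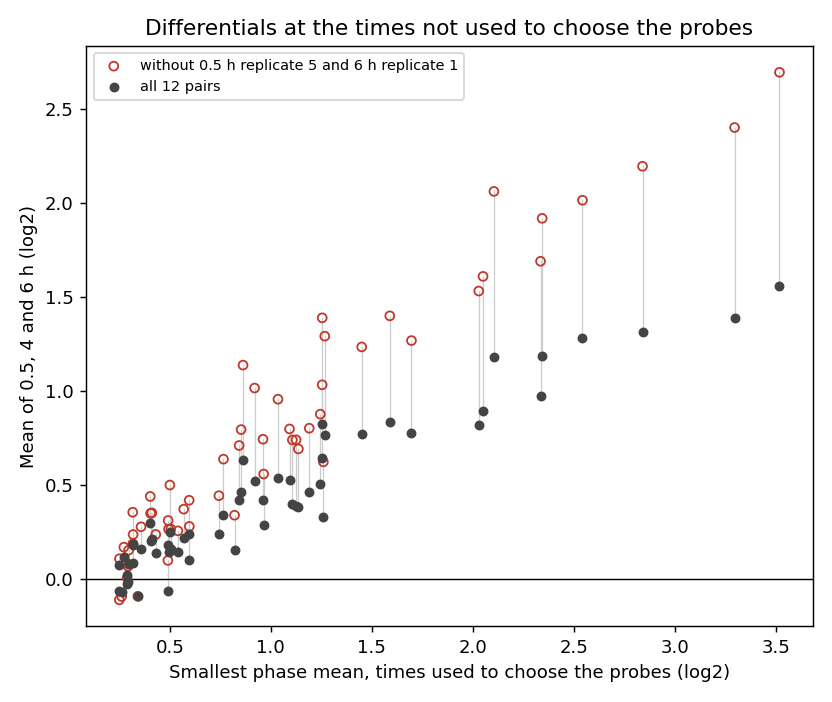
Mean differential over 0.5, 4 and 6 h (y axis, log2) of each of the 58 probes against the smallest of the 3 means that chose it (x axis, log2), with all 12 pairs (filled) and without 0.5 h replicate 5 and 6 h replicate 1 (open), joined by a line for each probe. With all pairs the values run from -0.09 to 1.56, and without these 2 pairs from -0.11 to 2.70.

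At each of these times on its own, few of the 58 probes were above 0 in every pair. At 0.5 h the median of the 58 mean differentials was 0.30, and 2 of the 58 were above 0 in every pair, where 4.13% of all probes were. At 4 h the median was 0.10 and 4 of the 58 were above 0 in every pair, against 10.1% of all probes. At 6 h the median was 0.48 and 1 of the 58 was above 0 in every pair, against 4.4% of all probes. The shares of the 58 above 0 in every pair, 2, 4 and 1 probes, were thus no higher than those of all probes at these times, as the pairs set apart held most of them below 0.

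Pc33Hh20, Pc02Hl03, Pc19Pb22, Pc07Wa04 and Pc26Ga02 had a mean of at most 0.1 at 1 or more of the times that chose them, and were singled out as a subset after their values were seen. In each of the 5 the mean was highest at 30 h and next highest at 2 h. Their low means lay at 1 or 24 h. As the rule held the early and late means up, a high mean at 2 or 30 h largely followed from the choice. The order was not particular to the 5. Pc06We09 and Pc05Wo09, which the rule did not keep, had 0.70 and 0.64 at 30 h and 0.48 and 0.39 at 2 h. Pc33Hh20 had a differential of 0.69 ± 0.46 at 2 h and 1.02 ± 0.48 at 30 h (SD, n = 5 each), with -0.09 ± 0.51 at 1 h (SD, n = 4) and 0.07 ± 0.27 at 24 h (SD, n = 5). Pc07Wa04 had 0.51 ± 0.54 at 2 h and 0.85 ± 0.41 at 30 h, with 0.02 ± 0.43 at 24 h (SD, n = 5 each). Their mean over 0.5, 4 and 6 h was -0.09 for Pc33Hh20, -0.03 for Pc02Hl03, -0.07 for Pc19Pb22, 0.08 for Pc07Wa04 and -0.07 for Pc26Ga02. None of the 5 was among the 27 called without the 2 pairs set apart.

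In 0.5 h replicate 5 these 5 probes were raised, by 0.94, 0.45, 0.56, 0.65 and 1.11, whereas 50 of the other 53 were below 0 in that pair. Over the pairs of 0.5, 4 and 6 h, Pearson's r between their differentials had a median of 0.64 and ran from 0.52 to 0.97, while r between them and the other 53 had a median of 0.09. Among the other 53 the median r was 0.82. Without 0.5 h replicate 5 and 6 h replicate 1 the medians were 0.39 within the 5, 0.39 between the 5 and the others, and 0.71 among the others, so without those pairs the 5 resembled one another about as much as they resembled the other 53, and both medians were below that among the other 53. At 0.5 h the level of Pc33Hh20 was 8.98, 9.15, 9.89, 9.68 and 9.61 in heat stressed crabs, against 9.17, 9.05, 10.57, 10.13 and 8.67 in control crabs. The groups overlapped, and 2 of the 5 pairs were above 0.

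Another pair of probes swung widely between crabs late in recovery. Pc27Gk23 had differentials of 2.92, -1.87, 0.32, -0.22 and 1.26 in the pairs of 24 h and of -0.57, 2.22, 1.15, 0.50 and 0.27 in those of 30 h. Pc31Ho19 had 2.49, -1.66, 0.37, -0.79 and 1.62 at 24 h and -0.94, 2.06, 1.44, 0.41 and -0.09 at 30 h. The 2 probes moved together, with r = 0.97 over these 10 pairs and 0.89 over the 12 pairs of 0.5, 4 and 6 h. Their late means of 0.60 and 0.49 were smaller than the spread between pairs, and both were named after their values were seen. A wide spread at 24 h was not particular to them. The SD at 24 h was 1.77 in Pc27Gk23 and 1.70 in Pc31Ho19. It was 1.71 in Pc30He22 and 1.03 in Pc21Gb09, which the rule did not keep.

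The 58 probes resembled one another in how they varied from pair to pair at the times not used to choose them. Over the 12 pairs, r between members had a median of 0.78 over 1653 combinations, against 0.02 over every combination of the 13818 probes. Over the 10 pairs without 0.5 h replicate 5 and 6 h replicate 1 these medians were 0.64 and 0.02. The 10 pairs still held 4 h replicates 1 and 3, where the medians of the 58 were -0.09 and -0.10. The mean of each time was left in the differentials, so probes raised or lowered in the same pairs have a high r. The comparison was with all probes and not with other raised probes. The pairs share crabs and arrays between probes, so these are descriptions. Pc01Hi06 and Pc33Hn10 were most alike, with r = 0.998 over 12 pairs and 0.99 over 10, although the late mean of Pc01Hi06 was above its early mean and that of Pc33Hn10 below it. Pc32Hb04 and Pc33He01 followed with 0.99 and 0.98, and Pc03Nk19 and Pc31Hn17 with 0.99 and 0.97.

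Bright and dim spots both occurred in the set. The brightness of different probes does not rank their transcripts and says only how well a spot was lit. In the control crabs of 0.5, 4 and 6 h, Pc03Nj22 and Pc03Ng12 had the brightest spots of the 58, and their middle means were 0.37 and 0.99. Pc02Hg16 and Pc21Gl21 had the dimmest in the same crabs, and middle means of 0.67 and 0.42. Over 0.5, 4 and 6 h their differentials averaged 0.19 for Pc03Nj22, 0.24 for Pc03Ng12, 0.21 for Pc02Hg16 and 0.02 for Pc21Gl21, with adjusted p of 0.979 for the first 3 and 0.982 for Pc21Gl21 in limma.

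The probe ID holds a plate number, a letter and a well, none of which the rule used. Letter N was on 11 of the 58 probes, or 19.0%, and on 5.56% of all probes. Of these 11, 5 were among the first 20 in rank, with Pc04Ni13, Pc04Nb07, Pc03No23 and Pc03Nk19 in ranks 2 to 5. Letter H was on 27 of the 58, or 46.6%, and on 36.1% of all probes, and letter P was on 2 of the 58, or 3.45%, and on 16.6% of all probes. What the letters stand for is not given in the sources used here. The 58 probes lay on 24 of 36 plates.

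Of the 58, 11 had another member in an adjoining well, diagonals included, which is 19.0%, while 402 of the 13760 other probes, or 2.92%, adjoined a member. Pc01Hi05 adjoined Pc01Hi06 and had an early mean of 0.82 and a late mean of 1.38, and Pc04Nb06 adjoined Pc04Nb07 and had 0.74 and 0.93. Pc31Hn17 adjoined Pc31Ho17, Pc08Hk23 adjoined Pc08Hk24, and Pc26Gf23 adjoined both Pc26Gf22 and Pc26Gg24. The 402 probes beside a member had a median early mean of 0.01, and 9 of them, or 2.24%, reached 0.4 in a mean, against 1.72% of all probes. The part of the position in the values of adjoining members was not tested.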

How the data were processed

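What the authors deposited is a table of log2 intensities for 13818 probes in 164 channels, each channel being 1 dye of 1 array. The log2 scale was inferred from the maxima of the channels, 15.1 to 16.6. How the authors corrected and normalized the values is not given in the sources used here. Channel medians ran from 6.77 to 9.17, whereas within an array the medians of both dyes were typically 0.0177 apart.

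For each crab the mean of its Cy5 and Cy3 values was taken, so a crab counted as 1 replicate, and the number of pairs of crabs limits the precision. Treatment, time and number came from the titles, while 20 descriptions named the other treatment. Crabs of equal number share arrays. Their deviations from the means of their groups had a Pearson's r of 0.44 to 0.94 over the 41 pairs, with a median of 0.75. Crabs of unequal number were not compared in this way, so the pairing rests on the shared arrays. Pair differentials of 0.5, 4 and 6 h were fitted with limma 3.58.1 (lmFit, eBayes) in R 4.3.3, and p-values were adjusted by Benjamini-Hochberg over all probes, without a filter. The p-values rest on the spread of the differentials between the pairs of a time, in which differences between arrays are included. The fit was tested on simulated data with independent normal noise for each probe. It recovered 86.6% of added differences of 0.5 log2 units and 98.5% of those of 1, with 13 false calls. The simulation held no pair in which many probes were inverted together, so it does not show what the fit recovers in these data. Tables and plots were made with Python 3.11.15 (numpy 2.4.6, pandas 2.3.3) and drawn with matplotlib 3.10.9.

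The 58 probes, the subsets and the pairs set apart were chosen with earlier results of these data known. By rule the text names the 6 members with the largest smallest mean, the last in rank and those next to each limit. It also names the 3 highest and 3 lowest over 0.5, 4 and 6 h, and the 2 brightest and 2 dimmest in controls of these times. The 3 pairs most alike are named too. Other names were added after their values were seen. Alternatives covered the block, normalization, each array, eBayes settings, dim probes, labels and pairs left out. Leaving out the block together with the 2 pairs set apart was added after the data were seen.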

Additional observations from a re-analysis of the deposited data

Results flagged for a closer look

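Dixon's test asked, for the median of the 58 probes and for each of the 6 probes first in rank, whether 1 pair lay far from the others at a time with 4 or 5 pairs. Of 56 such groups 9 were marked, all of them at 0.5 or 6 h. Chance marks about 1 in 20 of independent groups. The 56 also covered the times that chose the probes, and groups of 1 time share pairs. No chance rate is therefore set against the 9. At 0.5 h the pair of replicate 5 was set apart in Pc01Hi06, where its gap made up 0.916 of the whole range, in Pc04Ni13 (0.737), in Pc04Nb07 (0.886), in Pc03No23 (0.768) and in Pc03Nk19 (0.822). At 6 h the pair of replicate 1 was set apart in Pc01Hi06 (0.928), Pc04Ni13 (0.917), Pc03Nk19 (0.903) and Pc35Hd22 (0.839). The 9 groups share these 2 pairs and are not independent. In Pc01Hi06 the differential of 0.5 h replicate 5 was -3.87, while the other pairs of 0.5 h lay between 2.90 and 3.52. That of 6 h replicate 1 was -4.10, while the others of 6 h lay between 3.60 and 4.20. The cause was not tested.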

How the results depend on the processing

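With the treatment of the descriptions, the median differential of the 58 probes over 0.5, 4 and 6 h was -0.17 in place of 0.32, 5 probes lay above 0 in place of 52, and 13 of the 18 probes named by rule turned their sign, Pc01Hi06 to -0.44, Pc04Ni13 to -0.61, Pc04Nb07 to -0.45, Pc03No23 to -0.28, Pc03Nk19 to -0.26, Pc35Hd22 to -0.50, Pc03Nj22 to -0.0803, Pc02Hg16 to -0.12, Pc21Gl21 to -0.0374, Pc33Hn10 to -0.28, Pc32Hb04 to -0.62, Pc33He01 to -0.28 and Pc31Hn17 to -0.15. The small value of Pc21Gl21, 0.02, also changed sign, to -0.0005 after quantile normalization, -0.0716 on array a, -0.0019 with the median over pairs, and between -0.0284 and 0.0814 with 1 pair left out. On array b Pc33Hh20 was 0.027 in place of -0.09 and Pc03Nj22 was -0.10.

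Counts of calls moved from 0 in these cases. Array b alone gave 4 probes at 6 h and 5 for the mean. Without 0.5 h replicate 5 and 6 h replicate 1, left out because of their values, there were 21 probes at 0.5 h and 42 at 6 h. For the mean there were 86, or 0.622% of all probes, of which 62 were higher in heat stressed crabs and 27 were among the 58. Without 4 h as well there were 36, 40 and 127. The 127 were 0.919% of all probes, with 73 of them higher and 33 among the 58. Without these pairs and with no replicate block there were 7, 18 and 21. The 21 were 0.152% of all probes, with 16 among the 58. With all pairs and no replicate block limma called 0 probes at each time and for the mean, with 23 probes and 14 of the 58 at an unadjusted p under 0.05 for the mean. Leaving out 1 pair in turn gave 0 calls, except 1 at 4 h without replicate 1, a median of the 58 between 0.22 and 0.49, and 50 to 55 probes above 0. The rule kept 47 probes with medians over pairs, and 52 to 60 with 1 replicate number left out, 47 to 57 of them shared. On array a alone 103 probes passed and on array b alone 253, against 58 with both arrays averaged. The limit cut each to 60, of which 44 were shared on array a and 38 on array b. With a share of 0.4, 75 passed and 60 were kept, 52 of them shared. With a share of 0.6, 39 were kept. The replicate block changed no other call. The cause of these changes was not tested. The deposited values hold no background signal, so which probes it limits was not assessed.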
